A study of Mus musculus with 24 samples.

Results

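The Cyp2c cluster is a run of cytochrome P450 genes on mouse chromosome 19, and 10 of its genes are described here from sequencing of polyadenylated liver RNA: Cyp2c29, Cyp2c37, Cyp2c38, Cyp2c39, Cyp2c40, Cyp2c50, Cyp2c54, Cyp2c55, Cyp2c69 and Cyp2c70. They were chosen by symbol from the 22429 genes of the count table. Livers of male F1 hybrid mice (C57BL6J/FVBN) were profiled in 6 groups of 4 libraries. The mutant groups carried Ercc1 d/-, a truncated and a null allele of a DNA repair gene, and wild-type groups were Ercc1 +/+. Mutants were restricted by 30% and taken at 16 weeks (restricted mutants), fed freely to 16 weeks (free-fed mutants), or fed freely to 7 weeks (7-week mutants). Wild types were restricted by 30% and taken at 16 weeks (restricted wild types), fed freely to 104 weeks (104-week wild types), or fed freely to 16 weeks (free-fed wild types). Both genotypes ate AIN93G synthetic pellets. Restriction started at 7 weeks of age and stood at 30% from 9 weeks. Daily intake was 1.6 g in restricted mutants and 2.3 g in free-fed mutants, against 2.1 g in restricted wild types and 3.0 g in free-fed wild types, so free feeding was not equal intake. No meal preceded the collection of livers on the last day. Whether the libraries of a group came from separate mice is not stated in the labels, so each p-value reflects only how far these libraries spread, which may be technical.

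Library totals ran from 13.27 to 20.62 M counts per library, mitochondrial genes took 8.6 to 16.92% of them, and 14559 to 15315 genes had at least 1 count. All 6 hepatocyte markers were present in each group, with a summed level of 58657.9 to 149151.0 CPM (counts scaled to a common library size) per library. Ercc1, the targeted gene, averaged 1.55 ± 0.331 CPM in restricted mutants, 1.51 ± 0.414 in free-fed mutants and 1.61 ± 0.488 in 7-week mutants, against 3.52 ± 0.977 in restricted, 3.11 ± 0.756 in 104-week and 2.59 ± 0.413 in free-fed wild types (SD, n = 4 each). Its log2 difference between genotypes was -1.19 ± 0.27 under restriction (SE; edgeR's quasi-likelihood test, Benjamini-Hochberg adjusted p = 0.0033) and -0.78 ± 0.28 under free feeding (adjusted p = 0.0754). Counts per gene include reads from the mutant alleles, so this is a partial check of the labels. The mitochondrial share moved with the diet. It was 13.55 to 15.01% in restricted mutants, against 9.37 to 10.89% in free-fed mutants, and 12.45 to 16.92% in restricted wild types, against 10.71 to 11.77% in free-fed wild types. The share of counts from Alb, the serum albumin gene, was 8.14 to 9.98% in restricted mutants, against 5.36 to 6.65% in free-fed mutants, and 8.88 to 12.0% in restricted wild types, against 6.42 to 7.72% in free-fed wild types. Neither share overlapped between the diets in either genotype, and their part in the members' responses to restriction was not tested.

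Cytochromes P450 of the 2C subfamily are haem enzymes of the endoplasmic reticulum that take electrons from P450 oxidoreductase, and in liver they oxidise drugs, fatty acids, retinoids and bile acids. Their transcription in mouse hepatocytes is known to depend on the xenobiotic receptors CAR and PXR, on HNF4A and FOXA factors, and on the pattern of growth hormone secretion, which differs between males and females. Cyp2c29 is a drug-oxidising enzyme induced through CAR, and Cyp2c39 hydroxylates retinoic acid. Cyp2c37, Cyp2c50 and Cyp2c54 form epoxides and hydroxy acids from arachidonic acid, Cyp2c40 hydroxylates the same fatty acid, and Cyp2c55 does so with its main expression in the intestine. Cyp2c70 makes the muricholic acids of rodent bile. Cyp2c39, Cyp2c40 and Cyp2c69 are known for higher transcript levels in female than in male mouse liver.

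On GRCm38 the members lie between chr19:39007019 and chr19:40187333, a stretch of 1180.3 kb. From the low end the order is Cyp2c55, Cyp2c65, Cyp2c66, Cyp2c29, Cyp2c38, Cyp2c39, Cyp2c67, Cyp2c68, Cyp2c40, Cyp2c69, Cyp2c37, Cyp2c54, Cyp2c50 and Cyp2c70. Cyp2c65 to Cyp2c68 are cluster genes outside the list, and Cyp2c23 lies apart at chr19:44005022-44029208. RefSeq promoter windows on GRCm38.p6, from 250 bases before to 50 bases after the start, matched 9 of the 10 members, and Cyp2c54 had no entry. The windows of the 5 members with the largest responses to restriction among the mutants' abundant transcripts follow, read on the gene's own strand. They lie at chr19:39286835-39287134 (plus strand, Cyp2c29), chr19:39463026-39463325 (minus, Cyp2c38), chr19:39510572-39510871 (plus, Cyp2c39), chr19:39812765-39813064 (minus, Cyp2c40) and chr19:39886720-39887019 (minus, Cyp2c69). The RefSeq start of Cyp2c29 lies inside the longer span that the GENCODE annotation gives the gene. Capitals mark matches to the motifs searched.
Cyp2c29: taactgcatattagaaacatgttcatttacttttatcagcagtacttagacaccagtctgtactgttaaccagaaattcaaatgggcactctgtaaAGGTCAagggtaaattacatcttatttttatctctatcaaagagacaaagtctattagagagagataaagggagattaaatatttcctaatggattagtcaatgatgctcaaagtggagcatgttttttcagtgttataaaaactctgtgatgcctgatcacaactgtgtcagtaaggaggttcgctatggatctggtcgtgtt
Cyp2c38: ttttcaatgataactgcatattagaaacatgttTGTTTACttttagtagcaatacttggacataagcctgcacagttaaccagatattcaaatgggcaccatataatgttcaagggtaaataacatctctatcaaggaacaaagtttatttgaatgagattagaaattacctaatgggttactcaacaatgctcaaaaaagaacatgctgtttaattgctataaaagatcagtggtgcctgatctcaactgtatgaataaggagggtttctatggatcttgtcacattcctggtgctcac
Cyp2c39: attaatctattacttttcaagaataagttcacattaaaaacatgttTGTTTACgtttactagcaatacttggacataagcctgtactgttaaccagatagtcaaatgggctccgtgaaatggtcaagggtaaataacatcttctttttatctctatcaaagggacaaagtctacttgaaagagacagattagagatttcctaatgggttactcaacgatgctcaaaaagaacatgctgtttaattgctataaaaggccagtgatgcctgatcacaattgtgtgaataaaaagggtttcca
Cyp2c40: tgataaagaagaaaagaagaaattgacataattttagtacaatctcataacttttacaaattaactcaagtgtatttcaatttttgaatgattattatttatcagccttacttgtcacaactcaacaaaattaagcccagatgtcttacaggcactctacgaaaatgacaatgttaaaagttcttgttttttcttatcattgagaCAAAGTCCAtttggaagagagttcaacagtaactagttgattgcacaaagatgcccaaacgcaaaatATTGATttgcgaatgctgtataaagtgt
Cyp2c69: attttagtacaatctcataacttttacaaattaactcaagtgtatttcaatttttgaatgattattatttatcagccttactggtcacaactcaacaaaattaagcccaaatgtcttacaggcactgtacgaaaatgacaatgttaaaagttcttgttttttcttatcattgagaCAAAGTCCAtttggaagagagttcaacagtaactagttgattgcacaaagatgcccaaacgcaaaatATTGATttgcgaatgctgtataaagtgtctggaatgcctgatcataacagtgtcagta

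Each motif was searched on both strands, and a match is only a match of letters. The FOXA motif TGTTTAC stood in Cyp2c38 at position -217 and in Cyp2c39 at position -204, counting the start base as 0, and in 3.6% of 32851 promoters. The HNF4A motif CAAAGTCCA stood in Cyp2c40 (position -45), Cyp2c69 (-75) and Cyp2c70 (-64) and in 0.5% of promoters. The HNF6 and CUX2 motif ATCAAT, seen here as its reverse complement ATTGAT in Cyp2c40 and Cyp2c69, also stood in Cyp2c37 and Cyp2c50 and in 7.5% of promoters. In Cyp2c37 it matched on each strand, in overlapping copies. The nuclear receptor core motif AGGTCA stood in Cyp2c29 and Cyp2c70 and in 16.3% of promoters. The STAT5 motif TTCNNNGAA (8.3% of promoters) and the C/EBP motif TTGCGCAA (0.2%) had no match in these 9 windows.

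The printed windows fall into the same families as the coding sequences. Those of Cyp2c40 and Cyp2c69 were 98.9% identical, those of Cyp2c38 and Cyp2c39 88.2%, and that of Cyp2c29 was 80.5% identical to Cyp2c39. Over the longest open reading frames, Cyp2c40 and Cyp2c69 were 97.9% identical, Cyp2c37 and Cyp2c50 96.1%, Cyp2c54 and Cyp2c50 95.2%, Cyp2c38 and Cyp2c39 94.2%, and Cyp2c29 and Cyp2c39 89.5%. This similarity bears on the counts, since a read from a shared stretch can be given to either gene. Of all 50-base stretches in a member's transcripts, 60.3% of Cyp2c40 and 54.3% of Cyp2c69 also occurred in another Cyp2c gene. The share was 30.1% for Cyp2c37, 25.7% for Cyp2c54, 18.3% for Cyp2c50, 11.4% for Cyp2c39, 7.4% for Cyp2c38 and 0.3% for Cyp2c29. Cyp2c55 and Cyp2c70 shared none. The separate values of Cyp2c40 and Cyp2c69, and of Cyp2c37, Cyp2c50 and Cyp2c54, are therefore uncertain, and sums over related genes are given beside them. Cyp2c29 also overlaps the annotated pseudogene Cyp2c53-ps on the same strand.

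The summed level of the 10 members, described here without a test, averaged 3928.1 ± 414 CPM in restricted mutants, 3026.7 ± 483 in free-fed mutants and 3828.3 ± 462 in 7-week mutants, against 4353.1 ± 630 in restricted, 4887.0 ± 677 in 104-week and 4088.1 ± 396 in free-fed wild types (SD, n = 4 each). Cyp2c29 supplied 6.5% of that sum in restricted mutants, 3.65% in free-fed mutants and 9.04% in 7-week mutants, against 12.2%, 16.7% and 26.0% in restricted, 104-week and free-fed wild types. Cyp2c39 supplied 14.5% in restricted mutants, 2.0% in free-fed mutants and 14.6% in restricted wild types, against 9.11% in free-fed wild types. Cyp2c40 supplied 7.1% in restricted mutants and 19.9% in free-fed mutants, against 11.0% in free-fed wild types. In bulk RNA, fewer cells of a type and less RNA per cell cannot be told apart.

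**Figure D1:**
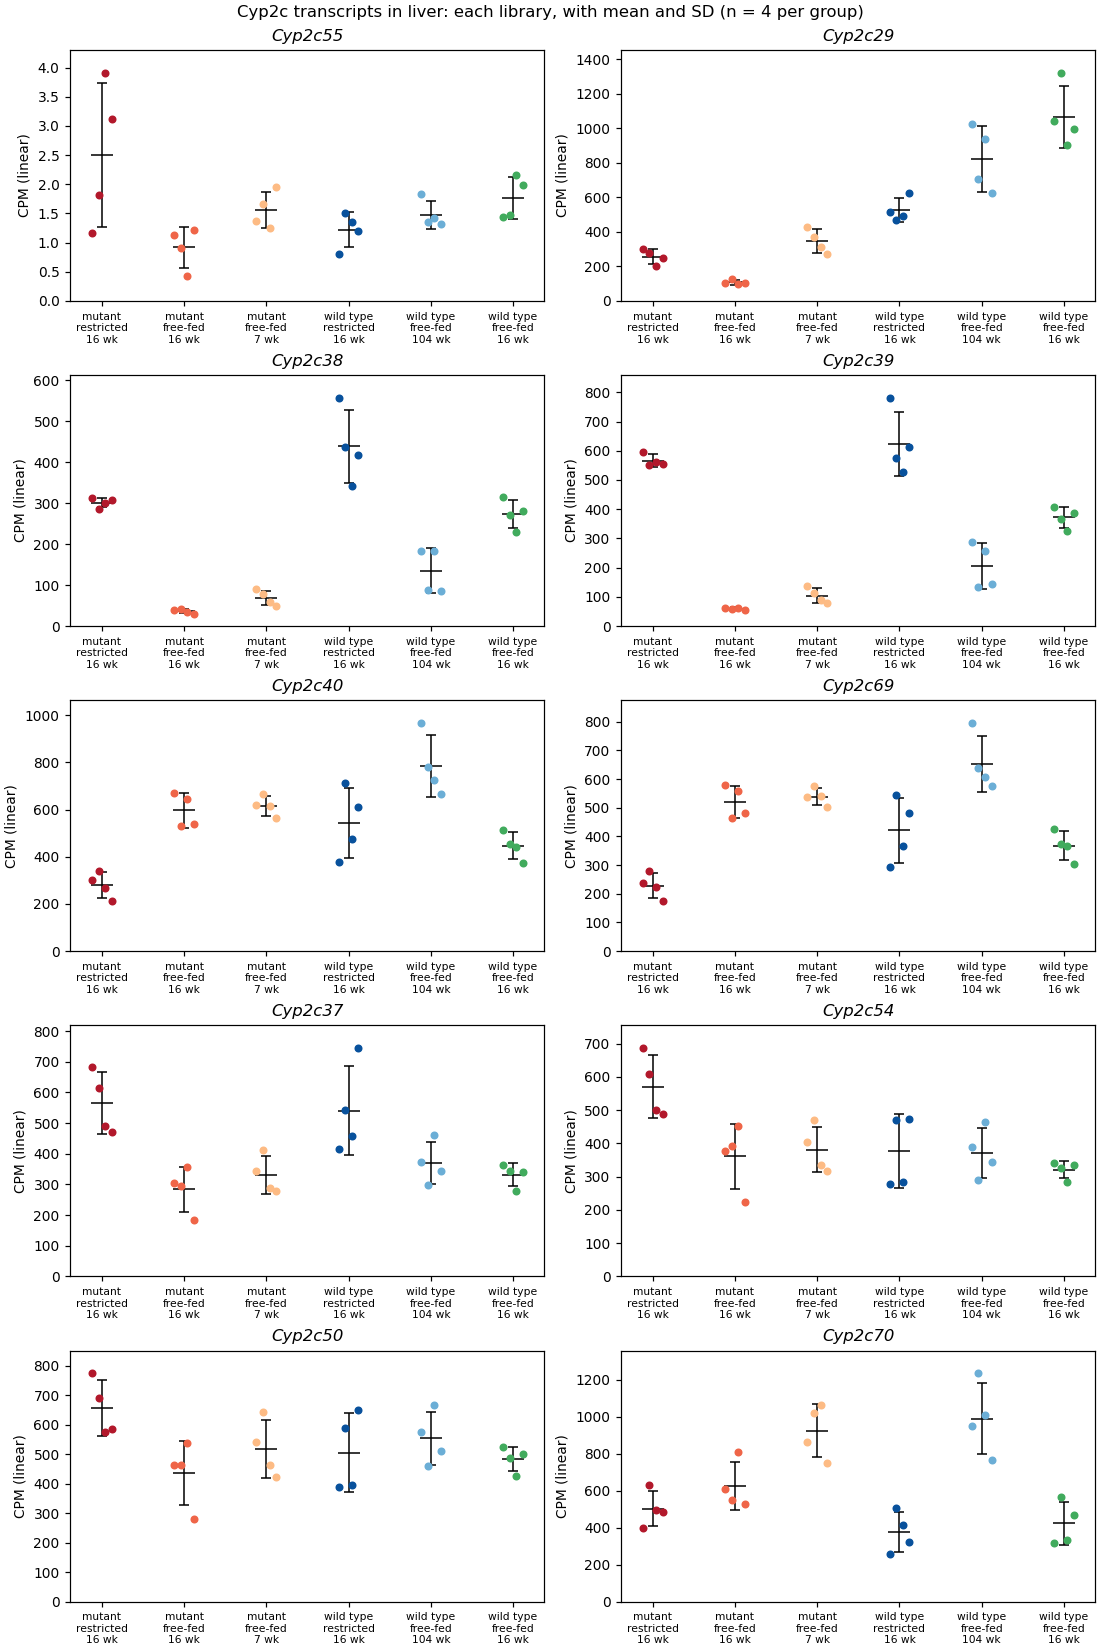
Level of each member in CPM on a linear axis, with a panel per gene, a point per library, and the mean and SD of each group of 4. Cyp2c38 and Cyp2c39 sit near the bottom of their panels in the free-fed mutants (36.5 and 60.0 CPM on average) and high in both restricted groups, while Cyp2c40 and Cyp2c69 are lowest in the restricted mutants.

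Levels per kilobase, over all annotated exons of a gene, compare the members only roughly. Those exon lengths ran from 1708 bases (Cyp2c69) to 3061 bases (Cyp2c29), so the order depends on the annotation. In restricted mutants Cyp2c50 had the highest mean of the 10 members in CPM (656) but 225 CPM per kb. In free-fed wild types Cyp2c29 had the highest mean level of the 10, at 349 CPM per kb, and in free-fed mutants it stood at 35.4 CPM per kb. In free-fed mutants the highest mean levels were those of Cyp2c70, Cyp2c69 and Cyp2c40, at 314, 305 and 293 CPM per kb. In restricted mutants they were those of Cyp2c54, Cyp2c39 and Cyp2c37, at 319, 312 and 310.0 CPM per kb. Cyp2c55 was between 0.461 and 1.25 CPM per kb in every group, far below the other members.

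All 10 members passed the filter on low counts and were tested with edgeR's quasi-likelihood test, in a fit of all 24 libraries, and called at a Benjamini-Hochberg adjusted p under 0.05. Restriction in mutants gave the largest count: 7 of 10 rose and 2 fell (Cyp2c40 and Cyp2c69), where 11.2% of the 12690 genes tested were called (4.91% higher, 6.33% lower). Of those that rose, Cyp2c50, Cyp2c54 and Cyp2c55 did not pass in a fit of only the libraries compared (adjusted p = 0.0676, 0.059 and 0.0548). Cyp2c50 also missed the threshold with a replicate block (0.0508). In wild types restriction raised 3 members and lowered 1, with 13.6% of all genes called (6.3% higher, 7.3% lower). The genotype difference under free feeding took in 3 members, all lower in mutants, with 9.94% of all genes called (5.1% higher, 4.85% lower). Under restriction 2 members were higher and 3 lower in mutants than in wild types, with 18.3% of all genes called (9.58% higher, 8.7% lower). That count was 3 without restricted wild-type library 1. The count of restriction in wild types was 2 without free-fed wild-type library 3 or restricted wild-type library 1 or 4.

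Age changed 5 members in wild types, 3 higher and 2 lower at 104 than at 16 weeks, with 10.1% of all genes called (5.13% higher, 5.0% lower). In mutants only Cyp2c29 passed, lower at 16 than at 7 weeks, with 0.686% of all genes called (0.355% higher, 0.331% lower). The count was 3 without 7-week library 4. Free-fed mutants at 16 weeks had 4 members lower than 104-week wild types and none higher, with 14.7% of all genes called (7.47% higher, 7.19% lower). The median log2 change of the 10 members was 0.83 for restriction in mutants, against 0.00 over all genes, and 0.21 for restriction in wild types, against 0.04. It was -0.19 for genotype under free feeding (0.02 over all genes), -0.04 for genotype under restriction (-0.03), 0.17 for age in wild types (0.02), -0.41 for age in mutants (0.00) and -0.53 for free-fed mutants against 104-week wild types (0.00). Comparisons that share a group share its 4 libraries, so their values are set side by side and not correlated. Groups of 4 libraries often did not overlap: the share of all genes tested without overlap was 17.3% for restriction in mutants, 17.2% for restriction in wild types, 22.5% for genotype under free feeding, 15.8% for genotype under restriction, 16.9% for age in wild types, 12.4% for age in mutants and 17.8% for free-fed mutants against 104-week wild types.

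**Figure D2:**
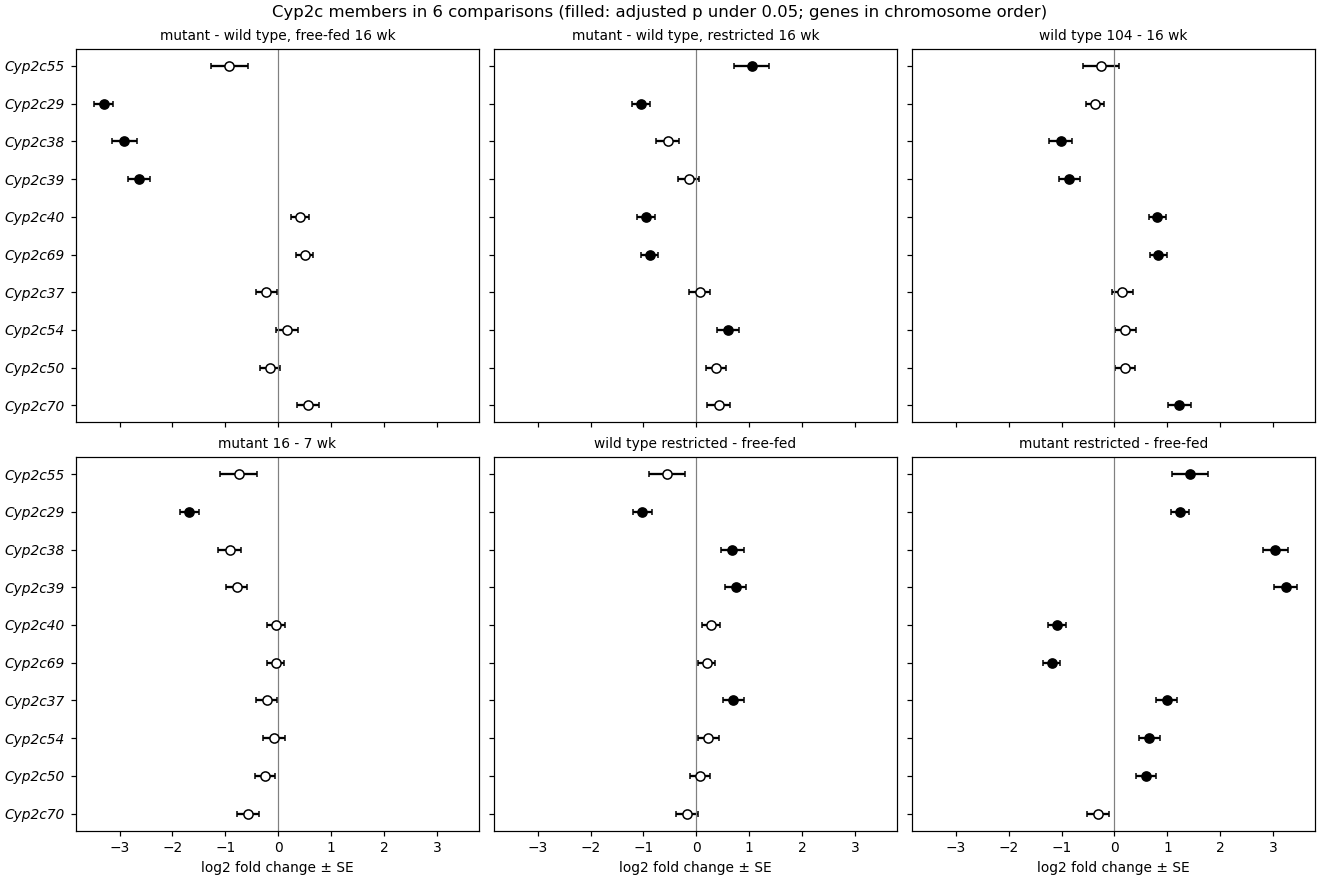
Log2 fold change of each member with its standard error in 6 comparisons, genes in chromosome order and filled points for adjusted p under 0.05. Neighbours Cyp2c29, Cyp2c38 and Cyp2c39 have the largest changes, reaching -3.30 for genotype under free feeding and 3.24 for restriction in mutants.

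Cyp2c29, the CAR-inducible drug oxidiser, was lower in mutants than in wild types on both diets. It had 101.9, 129.1, 100.6 and 101.4 CPM in free-fed mutants, against 1041.4, 1323.1, 906.6 and 997.3 CPM in free-fed wild types. No library of the groups overlapped, and the log2 difference was -3.30 ± 0.19 (SE; edgeR adjusted p = 1.96e-11), a 9.86-fold lower level in mutants. It had 299.6, 277.6, 199.9 and 246.3 CPM in restricted mutants, against 518.1, 468.0, 494.3 and 628.0 CPM in restricted wild types. Again every mutant library was below every wild-type library, with a smaller difference (-1.04 ± 0.17, adjusted p = 0.000129).

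Restriction moved Cyp2c29 in opposite directions in the genotypes. In mutants it was 2.36-fold higher in the restricted than in the free-fed group (1.24 ± 0.17, edgeR adjusted p = 1.91e-05). In wild types it was 2.02-fold lower in the restricted than in the free-fed group (-1.02 ± 0.17, adjusted p = 0.000273). Neither pair of groups overlapped. The difference between these responses was 2.26 ± 0.24 on the log2 scale (adjusted p = 1.33e-05).

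With age, Cyp2c29 fell in mutants. Free-fed mutants at 16 weeks had at most 129.1 CPM, against 428.4, 372.4, 315.0 and 272.1 CPM in 7-week mutants (-1.68 ± 0.17, edgeR adjusted p = 5.2e-06). In wild types it had 1027.5, 707.1, 939.8 and 622.7 CPM at 104 weeks, against the free-fed 16-week values above. Those ranges overlapped and the difference did not pass (-0.37 ± 0.17, adjusted p = 0.174). Free-fed mutants at 16 weeks were 7.61-fold below the 104-week wild types (-2.93 ± 0.18, adjusted p = 2.06e-10). By group mean the order from the top was free-fed wild types, 104-week wild types, restricted wild types, 7-week mutants, restricted mutants and free-fed mutants. Neighbouring groups in that order had overlapping ranges except at the step between restricted wild types and 7-week mutants and at the last step.

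Cyp2c39, the retinoic acid hydroxylase, gave the largest response to restriction of the 10 members. It had 596.9, 550.8, 561.8 and 554.9 CPM in restricted mutants, against 63.01, 59.43, 62.9 and 54.47 CPM in free-fed mutants. The groups were far apart, with a 9.44-fold higher level in the restricted mutants (3.24 ± 0.22, edgeR adjusted p = 2.23e-10). In wild types it had 780.8, 575.5, 528.7 and 612.2 CPM under restriction, against 408.2, 367.2, 324.7 and 386.5 CPM under free feeding. These groups did not overlap either, and the difference was 0.75 ± 0.20 (adjusted p = 0.0134). Without restricted wild-type library 1 it just missed the threshold (adjusted p = 0.0507). The response was larger in mutants by 2.49 ± 0.28 (adjusted p = 1.33e-05).

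Cyp2c38, the close relative of Cyp2c39 and also an arachidonic acid oxidiser, had values of the same order and direction. It had 312.7, 286.0, 299.5 and 306.8 CPM in restricted mutants, against 38.84, 41.94, 35.41 and 29.74 CPM in free-fed mutants. Restricted mutants were 8.26-fold higher (3.05 ± 0.24, edgeR adjusted p = 3.87e-09), with no overlap. In wild types it had 557.3, 436.5, 342.8 and 418.8 CPM under restriction, against 314.3, 272.0, 229.8 and 280.2 CPM under free feeding. The groups did not overlap (0.68 ± 0.22, adjusted p = 0.0392), but leaving out any of 6 of the 8 libraries (restricted wild types 1, 2 and 4, free-fed wild types 2, 3 and 4) ended the call, with adjusted p up to 0.125. The response differed between genotypes by 2.37 ± 0.31 (adjusted p = 0.000117).

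Under free feeding both genes were much lower in mutants than in wild types at 16 weeks, Cyp2c39 by 6.2-fold (-2.63 ± 0.21, edgeR adjusted p = 2.38e-08) and Cyp2c38 by 7.51-fold (-2.91 ± 0.24, adjusted p = 2.71e-08). Under restriction neither genotype difference passed. Cyp2c39 ranged from 550.8 to 596.9 CPM in restricted mutants, against 528.7 to 780.8 CPM in restricted wild types (-0.14 ± 0.20, adjusted p = 0.67). Cyp2c38 ranged from 286.0 to 312.7 CPM in restricted mutants, against 342.8 to 557.3 CPM in restricted wild types (-0.54 ± 0.22, adjusted p = 0.086), ranges that did not overlap.

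Both genes fell with age in wild types. At 104 weeks Cyp2c39 had 288.3, 132.5, 257.5 and 143.1 CPM, all below the free-fed 16-week libraries (-0.86 ± 0.20, edgeR adjusted p = 0.00646). Cyp2c38 had 183.7, 87.69, 183.6 and 86.51 CPM at 104 weeks (-1.02 ± 0.22, adjusted p = 0.00366). In both genes 104-week libraries 1 and 3 were higher than libraries 2 and 4. In mutants Cyp2c39 had 54.47 to 63.01 CPM at 16 weeks, against 136.1, 112.4, 87.37 and 77.64 CPM at 7 weeks (-0.79 ± 0.20, adjusted p = 0.069). Cyp2c38 had 29.74 to 41.94 CPM at 16 weeks, against 89.53, 77.05, 59.37 and 50 CPM at 7 weeks (-0.92 ± 0.22, adjusted p = 0.0527). Those ranges did not overlap, and both differences passed when 7-week library 4 was left out (adjusted p = 0.0494 and 0.0366). Both also passed with DESeq2 (adjusted p = 0.0192 and 0.0086), with only the libraries compared (0.00894 and 0.00733) and with the replicate block (0.0446 and 0.0371). Free-fed mutants at 16 weeks were also below every 104-week wild type, by 3.43-fold for Cyp2c39 (-1.78 ± 0.20, adjusted p = 2.28e-06) and 3.71-fold for Cyp2c38 (-1.89 ± 0.23, adjusted p = 4.46e-06). In both genes the group means ran from the top as restricted wild types, restricted mutants, free-fed wild types, 104-week wild types, 7-week mutants and free-fed mutants. The ranges of 104-week wild types and 7-week mutants overlapped in both.

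Cyp2c29, Cyp2c38 and Cyp2c39 lie next to each other, but the wild-type diet comparison separated Cyp2c29 from the other pair. Counts summed over these 3 genes, of which Cyp2c29 shares few stretches with the others, did not differ past the threshold between restricted and free-fed wild types (-0.11 ± 0.17, edgeR adjusted p = 0.711). The same sum was higher in restricted than in free-fed mutants (2.46 ± 0.17, adjusted p = 9.04e-10). The ratio of Cyp2c39 to Cyp2c29 in CPM, not corrected for length, averaged 2.26 ± 0.388 in restricted mutants, 0.56 ± 0.0777 in free-fed mutants and 0.296 ± 0.0179 in 7-week mutants. It averaged 1.2 ± 0.233 in restricted, 0.243 ± 0.0434 in 104-week and 0.354 ± 0.053 in free-fed wild types (SD, n = 4 each). Over the 24 libraries it ran from 0.187 to 2.81, and no restricted library overlapped a free-fed library of its genotype. The ratio of Cyp2c38 to Cyp2c39 stayed between 0.519 and 0.77 over all libraries. These ratios are given as a description, with no test.

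**Figure D3:**
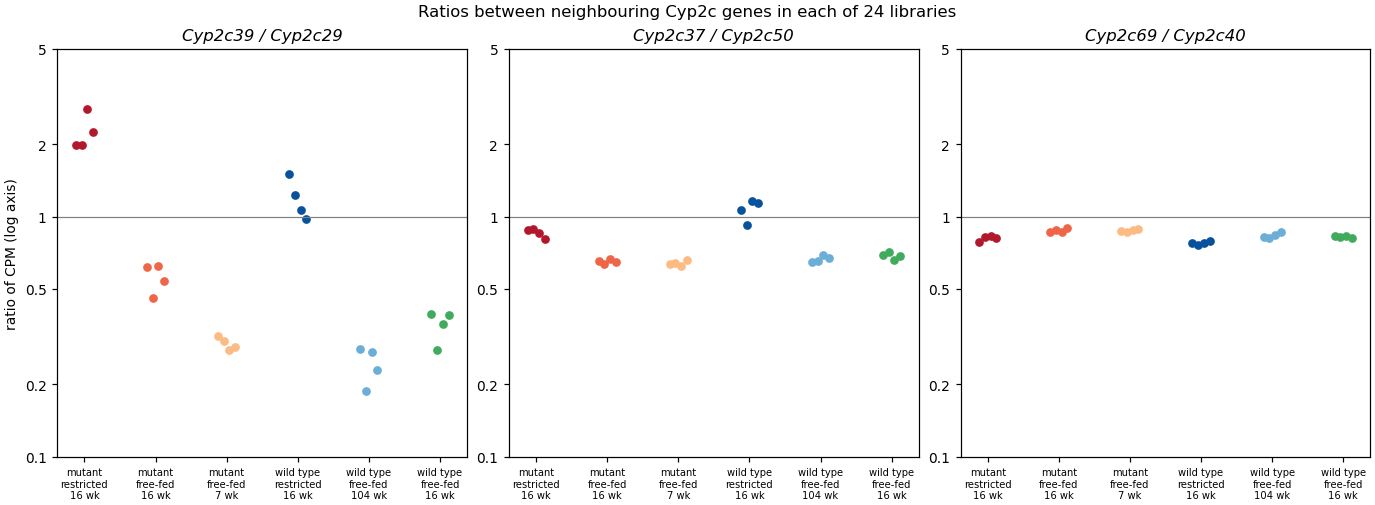
Ratios of CPM between neighbouring Cyp2c genes in each of the 24 libraries on a log axis, a point per library. Cyp2c39 over Cyp2c29 is above 1 in all restricted mutants and below 1 in all free-fed groups. Cyp2c37 over Cyp2c50 runs from 0.623 to 1.16, and Cyp2c69 over Cyp2c40 stays within 0.763 to 0.894.

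Cyp2c40, an arachidonic acid hydroxylase, and Cyp2c69, its near-identical neighbour, moved against the preceding genes. Cyp2c40 had 303.1, 338.2, 267.3 and 212.8 CPM in restricted mutants, against 670.5, 530.0, 646.7 and 538.3 CPM in free-fed mutants. Every restricted mutant was below every free-fed mutant, and the level was 2.13-fold lower (-1.09 ± 0.17, edgeR adjusted p = 8.41e-05). Cyp2c69 had 237.8, 278.0, 223.1 and 173.7 CPM in restricted mutants, against 578.8, 464.6, 558.2 and 481.1 CPM in free-fed mutants. It was 2.28-fold lower under restriction (-1.19 ± 0.17, adjusted p = 1.97e-05), also with no overlap.

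In wild types neither gene's response to restriction passed. Cyp2c40 had 376.2, 711.4, 473.6 and 612.1 CPM in restricted wild types, against 515.2, 455.7, 440.0 and 375.0 CPM in free-fed wild types. The groups overlapped, with restricted libraries 2 and 4 the highest (0.28 ± 0.17, edgeR adjusted p = 0.278). Cyp2c69 ranged from 292.2 to 542.8 CPM in restricted wild types, against 304.9 to 426.7 CPM in free-fed wild types (0.19 ± 0.16, adjusted p = 0.464). The response differed between genotypes by -1.37 ± 0.24 for Cyp2c40 (adjusted p = 0.00222) and by -1.39 ± 0.23 for Cyp2c69 (adjusted p = 0.00165).

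Under restriction both were lower in mutants than in wild types, Cyp2c40 by 1.94-fold (-0.95 ± 0.17, edgeR adjusted p = 0.0003) and Cyp2c69 by 1.84-fold (-0.88 ± 0.17, adjusted p = 0.000506), with no overlap in either. Under free feeding the mutant libraries were all above the wild-type libraries in both genes, a separation seen in 22.5% of all genes, and the tests did not pass. The difference was 0.42 ± 0.17 for Cyp2c40 (adjusted p = 0.122) and 0.50 ± 0.16 for Cyp2c69 (adjusted p = 0.0524). Both passed when libraries were scaled by total counts only (adjusted p = 0.0261 and 0.00867) and in a fit of only the libraries compared (0.0314 and 0.0114), and Cyp2c69 passed with DESeq2 (0.0386). At 104 weeks wild types had 966.5, 781.7, 724.5 and 664.1 CPM of Cyp2c40, all above free-fed 16-week wild types (0.81 ± 0.17, adjusted p = 0.00271). Cyp2c69 had 795.1, 639.2, 606.2 and 575.0 CPM at 104 weeks, also above every 16-week library (0.83 ± 0.17, adjusted p = 0.00169). In mutants the levels at 16 and 7 weeks overlapped for both, with differences of -0.05 ± 0.17 (adjusted p = 0.958) and -0.05 ± 0.16 (adjusted p = 0.954). By group mean both genes were highest in 104-week wild types, followed by 7-week mutants, free-fed mutants, restricted wild types, free-fed wild types and restricted mutants. The last step in that order separated the groups without overlap in both genes.

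Because Cyp2c40, Cyp2c67, Cyp2c68 and Cyp2c69 share much of their sequence, their counts were also summed. The sum was lower in restricted than in free-fed mutants (-1.15 ± 0.17, edgeR adjusted p = 3.09e-05), lower in restricted mutants than in restricted wild types (-0.89 ± 0.17, adjusted p = 0.00048), and higher at 104 than at 16 weeks in wild types (0.80 ± 0.17, adjusted p = 0.00256). Its response to restriction differed between genotypes by -1.32 ± 0.23 (adjusted p = 0.00292). The ratio of Cyp2c69 to Cyp2c40 ran only from 0.763 to 0.894 over the 24 libraries. The ratio of Cyp2c40 to Cyp2c39, which are less alike, ran from 0.384 to 10.6, averaging 0.495 ± 0.0951 in restricted mutants and 9.93 ± 0.743 in free-fed mutants (SD, n = 4 each).

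Cyp2c37, Cyp2c50 and Cyp2c54, the arachidonic acid epoxygenases, were higher in restricted than in free-fed mutants by smaller amounts. Cyp2c37 had 683.4, 613.9, 490.0 and 471.1 CPM in restricted mutants, against 304.2, 294.0, 357.0 and 182.2 CPM in free-fed mutants. The groups did not overlap (0.99 ± 0.20, edgeR adjusted p = 0.00123). Cyp2c54 had 686.0, 609.1, 499.8 and 487.1 CPM in restricted mutants, against 375.8, 393.0, 452.6 and 222.3 CPM in free-fed mutants (0.66 ± 0.21, adjusted p = 0.0365). Cyp2c50 had 774.3, 690.3, 575.1 and 585.6 CPM in restricted mutants, against 463.8, 462.8, 536.7 and 280.6 CPM in free-fed mutants (0.59 ± 0.19, adjusted p = 0.043). In all 3 genes free-fed mutant library 4 was the lowest and the groups did not overlap. The calls of Cyp2c50 and Cyp2c54 were lost without any of 5 libraries (restricted mutants 1 and 2, free-fed mutants 1, 2 and 4), with adjusted p up to 0.162 and 0.142. Summed over the 3 genes, counts were higher under restriction in mutants (0.73 ± 0.20, adjusted p = 0.0148).

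In wild types restriction raised Cyp2c37 alone of these 3. It had 416.6, 543.4, 458.0 and 744.1 CPM in restricted wild types, against 362.5, 344.8, 279.9 and 341.4 CPM in free-fed wild types. The groups did not overlap (0.70 ± 0.20, edgeR adjusted p = 0.0182), but the call was lost without restricted wild-type library 4 or free-fed wild-type library 3 (adjusted p up to 0.103). Cyp2c50 ranged from 388.6 to 650.7 CPM in restricted wild types, against 424.6 to 523.6 CPM in free-fed wild types (0.06 ± 0.19, adjusted p = 0.863). Cyp2c54 ranged from 276.9 to 473.6 CPM in restricted wild types, against 284.2 to 340.1 CPM in free-fed wild types (0.23 ± 0.20, adjusted p = 0.498). The summed counts did not differ past the threshold (0.32 ± 0.19, adjusted p = 0.285). None of the 3 passed the test of a difference in response between genotypes, with differences of 0.29 ± 0.28, 0.53 ± 0.27 and 0.43 ± 0.29 for Cyp2c37, Cyp2c50 and Cyp2c54.

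The balance within this trio was not constant. The ratio of Cyp2c37 to Cyp2c50 averaged 0.857 ± 0.0387 in restricted mutants, 0.651 ± 0.0126 in free-fed mutants and 0.639 ± 0.014 in 7-week mutants. It averaged 1.08 ± 0.108 in restricted, 0.665 ± 0.0208 in 104-week and 0.686 ± 0.0212 in free-fed wild types (SD, n = 4 each), so no restricted library overlapped a free-fed library of its genotype. Cyp2c54 was the member of the trio that differed between genotypes under restriction. It ranged from 487.1 to 686.0 CPM in restricted mutants, against 276.9 to 473.6 CPM in restricted wild types (0.60 ± 0.21, edgeR adjusted p = 0.0418). That call was lost without restricted mutant library 1 or 2 or restricted wild-type library 1 or 3 (adjusted p up to 0.126). It was also lost with no filter on low counts (adjusted p = 0.0566), in a fit of only the libraries compared (0.104) and in the summed counts of the trio (0.246). Neither age comparison, nor genotype under free feeding, passed for any of the 3.

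Cyp2c55, mainly an intestinal arachidonic acid hydroxylase, was near the limit of detection. It had 20, 34, 67 and 48 reads in restricted mutants and 18, 16, 6 and 19 in free-fed mutants, against 17, 21, 21 and 19 in restricted and 26, 22, 36 and 29 in free-fed wild types. In restricted mutants this was 1.167, 1.823, 3.911 and 3.111 CPM, against 1.133, 0.9117, 0.4274 and 1.208 CPM in free-fed mutants. The groups overlapped slightly and the difference passed (1.42 ± 0.34, edgeR adjusted p = 0.00678). That call was lost in a fit of only the libraries compared (adjusted p = 0.0548). In restricted wild types Cyp2c55 had 0.8066 to 1.504 CPM, against 1.445 to 2.155 CPM in free-fed wild types (-0.55 ± 0.34, adjusted p = 0.303). The response differed between genotypes by 1.97 ± 0.48 (adjusted p = 0.0373), and 10 of 16 leave-outs ended that call (adjusted p up to 0.0831): restricted mutants 3 and 4, free-fed mutants 1, 2 and 3, restricted wild types 1, 3 and 4, and free-fed wild types 3 and 4. The replicate block (0.0532) and a fit of only the libraries compared (0.086) ended it too.

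Under restriction Cyp2c55 was higher in mutants than in wild types (1.05 ± 0.33, edgeR adjusted p = 0.0296), and that call was lost without restricted mutant library 3 or 4 or restricted wild-type library 1 or 4 (adjusted p up to 0.146). It was also lost in a fit of only the libraries compared (0.139). The summed level of 4 intestinal markers, of which 1 was at 0 throughout, was 41.3 to 54.0 CPM in restricted mutants and 69.5 to 78.7 CPM in free-fed mutants, against 34.4 to 77.1 CPM in restricted and 135 to 155 CPM in free-fed wild types. Most of that sum was 1 gene, Fabp2, which averaged 36.5 CPM in restricted mutants and 63.9 CPM in free-fed mutants. Only 2 of the 4 markers passed the filter on low counts. Under restriction in mutants the sum and Fabp2 were lower while Cyp2c55 was higher. In wild types Fabp2 was also lower under restriction (-1.81 ± 0.18, edgeR adjusted p = 2.26e-07). Cyp2c55 had a lower mean there without passing. Between free-fed groups Fabp2 was lower in mutants (-1.01 ± 0.18, adjusted p = 0.000362), as was Cyp2c55 without passing (-0.92 ± 0.35, adjusted p = 0.0969). A part of intestinal tissue in these levels was not tested.

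Cyp2c70, the muricholic acid enzyme at the far end of the cluster, passed for age in wild types and for restriction in neither genotype. It had 946.6, 1233.8, 1007.4 and 766.6 CPM at 104 weeks, against 318.7, 567.5, 332.5 and 469.5 CPM at 16 weeks. Every older library was above every younger one, with a 2.34-fold higher level (1.23 ± 0.21, edgeR adjusted p = 0.000481). In mutants it had 607.4, 548.5, 810.0 and 525.6 CPM at 16 weeks, against 860.7, 1019.2, 1062.0 and 750.7 CPM at 7 weeks. Those groups overlapped and the lower value at 16 weeks did not pass (-0.57 ± 0.21, adjusted p = 0.29). In a fit of only the libraries compared this difference passed (adjusted p = 0.0429).

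Restriction did not change Cyp2c70 past the threshold in either genotype. Restricted mutants had 399.7 to 629.1 CPM, against 525.6 to 810.0 CPM in free-fed mutants (-0.31 ± 0.21, edgeR adjusted p = 0.389). Restricted wild types had 257.0 to 506.9 CPM, against 318.7 to 567.5 CPM in free-fed wild types (-0.17 ± 0.21, adjusted p = 0.639). The genotype difference was 0.56 ± 0.21 under free feeding (adjusted p = 0.0941) and 0.42 ± 0.21 under restriction (adjusted p = 0.172). The free-feeding difference passed without free-fed wild-type library 2 (adjusted p = 0.0399) and with the replicate block (0.0294). Free-fed mutants were lower than 104-week wild types (-0.67 ± 0.21, adjusted p = 0.0335), a call lost without any of 6 libraries (free-fed mutants 1, 2 and 4, 104-week wild types 1, 2 and 3), with adjusted p up to 0.106. Scaling by total counts only ended that call too (adjusted p = 0.102).

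Whether restriction acted alike in both genotypes was tested for each member as a difference of responses. It passed for 6 of 10 members, 4 with a higher response in mutants (Cyp2c29, Cyp2c38, Cyp2c39 and Cyp2c55) and 2 with a lower one (Cyp2c40 and Cyp2c69), where 1.5% of all genes tested were called (0.906% higher, 0.591% lower). The median difference was 0.48 on the log2 scale over the 10 members, against -0.04 over all genes. Except for Cyp2c55, these calls held without each of the 16 libraries in turn. Cyp2c29 was the member whose response passed in both genotypes with opposite signs.

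**Figure D4:**
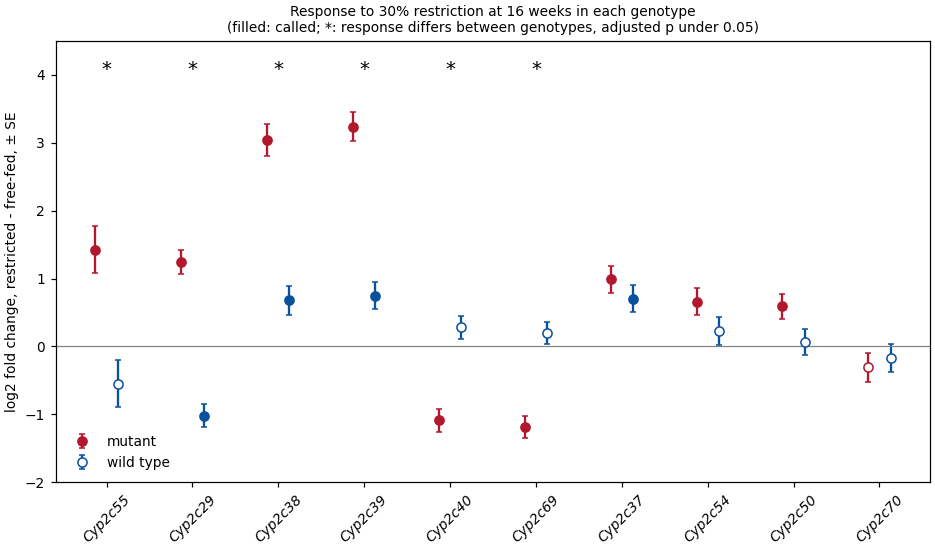
Log2 fold change of each member under restriction, with its standard error, in mutants and in wild types, genes in chromosome order. Filled points passed in that genotype and stars mark members whose response differed between genotypes, with Cyp2c39 at 3.24 in mutants and 0.75 in wild types.

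Along the chromosome, changes came in blocks of neighbours. In mutants under restriction, Cyp2c29, Cyp2c38 and Cyp2c39 were higher by 1.24 to 3.24 on the log2 scale, the run of Cyp2c67, Cyp2c68, Cyp2c40 and Cyp2c69 was lower, with changes from -0.81 to -1.46, and Cyp2c37, Cyp2c54 and Cyp2c50 were higher by 0.59 to 0.99. At the low end, Cyp2c65 and Cyp2c66 were lower, unlike Cyp2c55 beside them. All 5 Cyp2c genes outside the list fell in restricted mutants relative to free-fed mutants, where 6.33% of all genes fell. Their coding sequences were 96.3% identical for Cyp2c65 and Cyp2c66 and 97.2% for Cyp2c67 and Cyp2c68, so these are not 5 separate results. Cyp2c67 changed by -1.46 ± 0.17 (edgeR adjusted p = 1.38e-06), Cyp2c66 by -1.32 ± 0.22 (adjusted p = 0.000196), Cyp2c65 by -1.20 ± 0.23 (adjusted p = 0.000756) and Cyp2c23, outside the cluster, by -1.19 ± 0.21 (adjusted p = 0.000362). Blocks of neighbours are also blocks of similar sequence, so position and shared reads cannot be told apart for the near-identical genes.

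**Figure D5:**
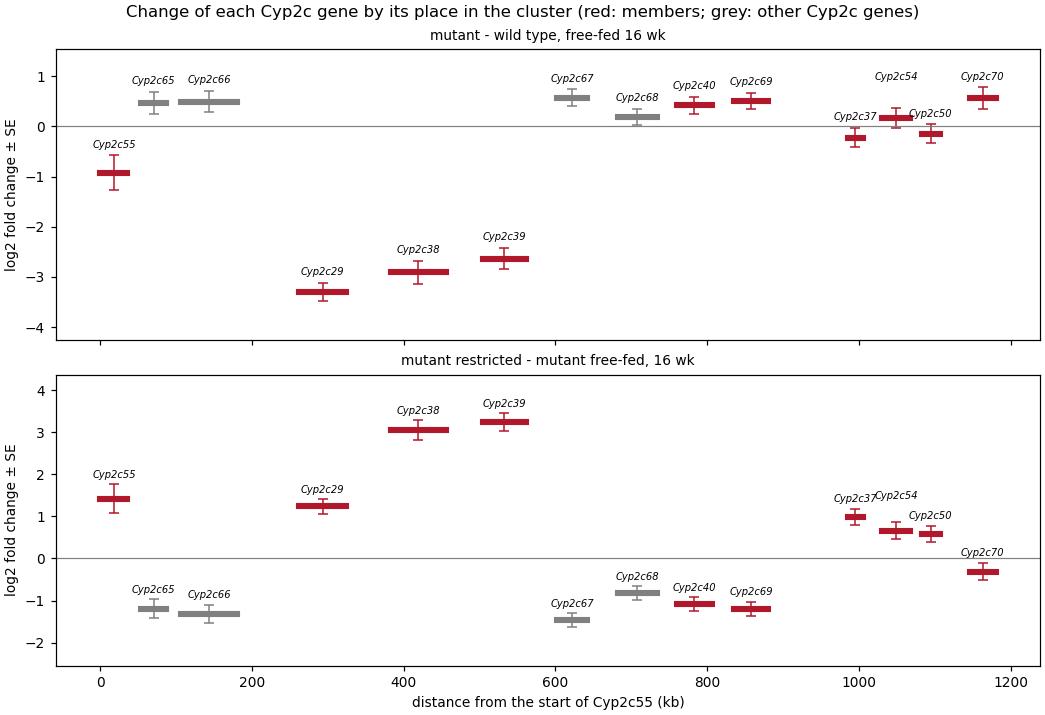
Log2 fold change, with its standard error, plotted at each gene's distance in kb from the start of Cyp2c55. Members and the other cluster genes are shown. The upper panel gives genotype under free feeding (mutants against wild types), and the lower panel gives restriction in mutants. In the lower panel the sign changes between Cyp2c39 (3.24) and Cyp2c67 (-1.46) and again between Cyp2c69 (-1.19) and Cyp2c37 (0.99).

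Among 18 known regulators of these genes, all tested, 2 rose and 2 fell in restricted relative to free-fed mutants, where 4.91% of all genes rose and 6.33% fell. Cux2, a repressor and activator known for its female-type liver expression in mice, had 76.8, 29.5, 18.6 and 24.6 CPM in restricted mutants, against 0.441, 0.399, 0.214 and 1.33 CPM in free-fed mutants. No library overlapped (5.94 ± 0.83, edgeR adjusted p = 4.97e-05), and the value was 5.32 without restricted mutant library 1 and 6.68 without free-fed mutant library 4. Ghr, the growth hormone receptor, was lower (-1.32 ± 0.17, adjusted p = 5.25e-06), as was Bcl6, a repressor known to be higher in male mouse liver (-1.91 ± 0.39, adjusted p = 0.00206). Foxa2, a forkhead factor of hepatocytes, was higher (0.97 ± 0.26, adjusted p = 0.016), a call lost in 3 of 8 leave-outs (restricted mutants 1 and 2, free-fed mutant 1, adjusted p up to 0.0579).

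In restricted relative to free-fed wild types 0 of the 18 rose and 2 fell (6.3% and 7.3% of all genes), Ghr (-0.97 ± 0.17, edgeR adjusted p = 0.000319) and Ppara, the fatty acid sensor (-1.08 ± 0.23, adjusted p = 0.0025). Cux2 had 25.9, 23.6, 41.4 and 1.01 CPM in restricted wild types, against 9.11, 5.46, 5.93 and 5.21 CPM in free-fed wild types, so the restricted library 4 lay below all free-fed ones. Its response was larger in mutants by 4.11 ± 1.03 (adjusted p = 0.0492), a call that 12 of 16 leave-outs ended (adjusted p up to 0.113), with 3.49 without restricted mutant library 1 and 4.85 without free-fed mutant library 4. The 4 leave-outs that kept it were those of restricted mutant 3, free-fed mutant 4 and restricted wild types 3 and 4.

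For genotype under free feeding 1 regulator was higher and 5 were lower in mutants (5.1% and 4.85% of all genes). Cux2 was lower (-3.41 ± 0.83, edgeR adjusted p = 0.0107, and -4.15 without free-fed mutant library 4), as was Ghr (-0.66 ± 0.17, adjusted p = 0.0107). Foxa2 was lower (-0.92 ± 0.26, adjusted p = 0.026), a call that 5 of 8 leave-outs ended (adjusted p up to 0.109). With age in wild types 1 rose and 3 fell (5.13% and 5.0% of all genes), among them Nr1i3, which encodes CAR (-1.35 ± 0.25, adjusted p = 0.000973), Cux2 (-3.42 ± 0.85, adjusted p = 0.0136) and Ppara (-0.88 ± 0.23, adjusted p = 0.0137). The 1 that rose was Bcl6 (1.47 ± 0.38, adjusted p = 0.0165), a call that 3 of 8 leave-outs ended. For genotype under restriction 0 were higher and 2 lower in mutants (9.58% and 8.7% of all genes), with Ghr at -1.0 ± 0.17 (adjusted p = 0.000141). With age in mutants Bcl6 alone rose (1.65 ± 0.39, adjusted p = 0.0475, where 0.355% of all genes rose), a call that 7 of 8 leave-outs ended (all but free-fed mutant 2, adjusted p up to 0.17).

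Of 19 other known targets of CAR and PXR, 8 rose and 3 fell in restricted relative to free-fed mutants, where 4.91% of all genes rose and 6.33% fell. Cyp2b10, the classic CAR target, had 48.9, 18.3, 15.2 and 17.8 CPM in restricted mutants, against 0.189, 0.57, 0.499 and 0.699 CPM in free-fed mutants (5.65 ± 0.58, edgeR adjusted p = 7.38e-07). Cyp2b13, a female-predominant relative in mice, rose by 5.23 ± 0.48 (adjusted p = 1.46e-07). Cyp3a11, a PXR target, averaged 1947 ± 324 CPM in restricted mutants and 546 ± 51.7 CPM in free-fed mutants (SD, n = 4 each; 1.83 ± 0.22, adjusted p = 2.35e-06). Aldh1a1, a retinaldehyde dehydrogenase, fell (-1.20 ± 0.13, adjusted p = 7.38e-07). The response of 4 of the 19 was larger in mutants (0.906% of all genes), Cyp3a11 (2.23 ± 0.31, adjusted p = 0.000156), Cyp2b10 (3.80 ± 0.72, adjusted p = 0.00675) Cyp2b13 (2.95 ± 0.59, adjusted p = 0.0105) and Cyp2b9 (2.96 ± 0.67, adjusted p = 0.0295). The Cyp2b9 call was lost in 8 of 16 leave-outs (adjusted p up to 0.0734). These Cyp2b and Cyp3a genes also have close paralogs, so their separate values are uncertain.

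In restricted relative to free-fed wild types 6 of the 19 rose and 3 fell (6.3% and 7.3% of all genes). Aldh1a1 (-1.48 ± 0.13, edgeR adjusted p = 6.2e-08) and the sulfotransferase gene Sult5a1 (-2.26 ± 0.34, adjusted p = 8.34e-05) fell. Ugt1a1, the bilirubin glucuronosyltransferase (0.99 ± 0.15, adjusted p = 6.01e-05), and Cyp2b13 (2.28 ± 0.38, adjusted p = 0.000354) rose. For genotype under free feeding 2 were higher and 7 lower in mutants (5.1% and 4.85% of all genes). Cyp2b10 (-5.58 ± 0.58, adjusted p = 1.64e-06), Cyp2b13 (-5.02 ± 0.48, adjusted p = 5.21e-07), Cyp2b9 (-4.67 ± 0.54, adjusted p = 8.09e-06) and Cyp3a11 (-1.50 ± 0.22, adjusted p = 4.46e-05) were lower, as Cyp2c29, Cyp2c38 and Cyp2c39 were. With age in wild types 2 rose and 8 fell (5.13% and 5.0% of all genes), among them Cyp3a11 (-3.00 ± 0.23, adjusted p = 4.55e-09), Aldh1a1 (-0.94 ± 0.13, adjusted p = 4.1e-05), Cyp2b13 (-2.81 ± 0.41, adjusted p = 0.000112) and Cyp2b10 (-3.12 ± 0.48, adjusted p = 0.000196). Cyp2c29 did not pass there.

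Of 15 genes listed for the arachidonic acid epoxide pathway outside the Cyp2c genes, 13 were tested. In restricted relative to free-fed mutants 7 fell, where 6.33% of all genes fell, and 0 rose, where 4.91% of all genes rose. In wild types 9 fell and 0 rose under restriction (7.3% and 6.3% of all genes). Cyp2j5, a liver epoxygenase, fell in mutants (-1.28 ± 0.15, edgeR adjusted p = 1.52e-06) and in wild types (-0.77 ± 0.15, adjusted p = 0.00109). Its relative Cyp2j8 fell in mutants (-1.35 ± 0.16, adjusted p = 2.68e-06) and in wild types (-0.88 ± 0.16, adjusted p = 0.000554). Cyp2j11 fell in mutants (-1.46 ± 0.28, adjusted p = 0.000872) and Cyp2j6 in wild types (-0.60 ± 0.14, adjusted p = 0.00464). Ephx1, the microsomal epoxide hydrolase, fell in mutants (-0.90 ± 0.23, adjusted p = 0.0117) and in wild types (-1.28 ± 0.23, adjusted p = 0.00069). The median change of the 13 was -0.43 in mutants and -0.71 in wild types, against 0.00 and 0.04 over all genes. Under restriction 1 of the 13 was higher and 5 were lower in mutants than in wild types (9.58% and 8.7% of all genes). Cyp2j6 was higher (0.51 ± 0.14, adjusted p = 0.0105), and Cyp2j5 was lower (-1.16 ± 0.15, adjusted p = 6.7e-06).

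In the bile acid synthesis list (13 genes, all tested), beside Cyp2c70, 1 rose and 3 fell with age in wild types (5.13% and 5.0% of all genes). Cyp7b1, the oxysterol hydroxylase of the alternative pathway, rose (1.84 ± 0.35, edgeR adjusted p = 0.00169) and Cyp8b1, which directs synthesis to cholic acid, fell (-2.58 ± 0.46, adjusted p = 0.00102). Hsd17b4, an enzyme of peroxisomal side-chain shortening (-0.74 ± 0.12, adjusted p = 0.000176), and Akr1d1, a steroid reductase (-1.17 ± 0.20, adjusted p = 0.000486), fell too. Under restriction 1 of the 13 rose and 3 fell in mutants (4.91% and 6.33% of all genes). In wild types 0 rose and 3 fell (6.3% and 7.3%). The 1 that rose in mutants was Acox2 (0.77 ± 0.20, adjusted p = 0.011). Its response was larger in mutants than in wild types by 1.32 ± 0.28 (adjusted p = 0.0128). Scp2, the sterol carrier and thiolase gene, fell in mutants (-1.10 ± 0.11, adjusted p = 1.63e-07) and in wild types (-1.14 ± 0.11, adjusted p = 1.59e-07). Under restriction Cyp7b1 fell in mutants (-3.21 ± 0.37, adjusted p = 3.76e-06) and in wild types (-2.43 ± 0.37, adjusted p = 0.000134), where Cyp2c70 did not pass. In the retinoic acid list, 9 of 10 genes were tested, and 2 rose and 3 fell in restricted relative to free-fed mutants (4.91% and 6.33% of all genes). Among those that fell were Aldh1a1, given above, and Aldh1a7 (-0.88 ± 0.16, adjusted p = 0.000442). Cyp26a1, the main retinoic acid hydroxylase, had 54.0, 29.9, 32.0 and 41.1 CPM in restricted mutants, against 10.7, 14.6, 17.7 and 11.2 CPM in free-fed mutants (1.53 ± 0.27, adjusted p = 0.000302). It was higher in 16-week than in 7-week free-fed mutants (3.89 ± 0.33, adjusted p = 2.25e-07), an age comparison in which Cyp2c39 did not pass (edgeR adjusted p = 0.069). It was also higher in restricted than in free-fed wild types (1.90 ± 0.29, adjusted p = 8.05e-05). Of 8 electron partners and haem supply genes, 1 rose (Hmox1) and 2 fell (Pgrmc1 and Cyb5r3) in restricted relative to free-fed mutants, where 4.91% of all genes rose and 6.33% fell. The Hmox1 call was lost in 5 of 8 leave-outs (adjusted p up to 0.0995). Por, the P450 oxidoreductase, passed in none of the 8 comparisons.

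Several marker lists moved in the same comparisons as the members. Of 10 periportal hepatocyte markers, 6 rose and 2 fell in restricted relative to free-fed mutants (4.91% and 6.33% of all genes), with a summed level of 15248.1 to 18916.7 CPM in restricted mutants, against 9185.5 to 11950.5 CPM in free-fed mutants. Of 10 pericentral markers 1 rose and 4 fell there, with summed levels of 6862.7 to 10560.4 CPM in restricted mutants, against 8108.7 to 10061.3 CPM in free-fed mutants. For genotype under free feeding 4 pericentral markers were higher and none lower in mutants (5.1% and 4.85% of all genes), at 8108.7 to 10061.3 CPM in free-fed mutants, against 6901.1 to 7572.9 CPM in free-fed wild types. Of those calls, Lgr5 was lost in 5 of 8 leave-outs (edgeR adjusted p up to 0.0991) and Lect2 in 1 of 8 (up to 0.0547). Of 8 Kupffer cell markers, 4 were higher in free-fed mutants than in free-fed wild types (5.1% of all genes), at 109 to 222 CPM in free-fed mutants, against 76.5 to 108 CPM in free-fed wild types. Without free-fed mutant library 1 or free-fed wild-type library 1, 3 of those 4 calls were lost (Cd68, Cd5l and Clec4f), and Marco, a scavenger receptor gene, passed (2.79 ± 0.58 with all libraries, edgeR adjusted p = 0.00281). All 8 were higher in restricted mutants than in restricted wild types (9.58% of all genes), at 174 to 256 CPM in restricted mutants, against 60.5 to 107 CPM in restricted wild types. Both B and plasma cell markers tested, of 5 listed, rose with age in wild types (5.13% of all genes), at 13.8 to 17.6 CPM at 104 weeks, against 0.833 to 1.99 CPM at 16 weeks. Of 5 red cell markers 4 were lower in free-fed mutants than in free-fed wild types (4.85% of all genes), at 357 to 733 CPM in free-fed mutants, against 1258.3 to 2286.7 CPM in free-fed wild types. All 4 calls were lost without free-fed mutant library 1 (highest edgeR adjusted p over all leave-outs 0.0809). In restricted relative to free-fed wild types 3 red cell markers fell (7.3% of all genes), at 368 to 823 CPM in restricted wild types. For Hba-a1 and Hba-a2, the alpha-globin genes, that call was lost in 5 of 8 leave-outs (restricted wild types 2, 3 and 4, free-fed wild types 1 and 4, adjusted p up to 0.0859). No marker of the periportal, pericentral or Kupffer lists was at 0 in any group. Their part in the members' differences was not tested.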

How the data were processed

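Polyadenylated RNA of 24 mouse liver libraries, labelled as 6 groups of 4, was sequenced. The authors deposited raw counts of reads per gene. Per the submitters' processing notes, featureCounts (Subread 1.6.4), Trimmomatic 0.39 and STAR 2.7.0f were among the tools, and the build was GRCm38.p6. No source used here gives the annotation release, the strand setting or the treatment of multi-mapped reads, which decide how reads shared by near-identical Cyp2c genes were counted.

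All 22429 gene identifiers matched a GENCODE annotation of GRCm38, which supplied positions and exon lengths. Genes were filtered with filterByExpr, scaled with TMM and tested with edgeR 4.0.16 (R 4.3.3) by the quasi-likelihood test, in 1 fit of 24 libraries with a mean per group, 18 residual degrees of freedom and a common dispersion of 0.0493. P-values were adjusted by Benjamini-Hochberg over all 12690 genes tested, with a threshold of 0.05. The test script was checked on simulated counts. CPM use TMM-scaled library sizes, and log2 CPM a prior count of 2. Counting error limits Cyp2c55, at 6 to 67 reads per library, more than the other members. No pair of libraries in a group agreed within sampling noise: of 36 pairs, the lowest chi-square per degree of freedom was 8.77.

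Samples were grouped by genotype, feeding and age as labelled, and 8 comparisons were made. The 10 members, the gene lists and the tests were chosen with earlier results of these data known. All members were named, the other Cyp2c genes as neighbours, and the list genes named are among the 4 with the smallest adjusted p of those called in a comparison. Not all of these are named, and the choice among them was made with their values known. A list gene withheld for evaluation is not reported here. Alternatives were DESeq2 1.42.0, other scaling factors, no filter, fits of only the libraries compared, a replicate block, counts summed over related genes, and each library left out in turn. Promoter windows are RefSeq's, and motif matches were counted without a test.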

Additional observations from a re-analysis of the deposited data

Results flagged for a closer look

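Cyp2c29 in free-fed 16-week mutants had 1 library, the second, at 129.1 CPM, apart from the other 3 at 100.6 to 101.9 CPM. Its gap to the nearest library, as a share of the group's range, was above Dixon's critical value for 4 samples. Of 60 sets of 4 libraries checked this was the only one, where chance flags about 1 in 20.

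The response to restriction differed between mutants and wild types in 6 members by edgeR's test of the difference. The difference (mutant response minus wild-type response, log2) was 2.258 for Cyp2c29, 2.366 for Cyp2c38, 2.491 for Cyp2c39, 1.971 for Cyp2c55, -1.372 for Cyp2c40 and -1.385 for Cyp2c69. The value of Cyp2c55 rests on 6 to 67 reads per library, and those of Cyp2c40 and Cyp2c69 on genes that share much of their sequence.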

How the results depend on the processing

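The count of members called moved by more than 1.5 times in 3 comparisons under alternatives that leave no replicate out. For genotype under free feeding it was 5 with total counts only, with the replicate block and with only the libraries compared, against 3. For genotype under restriction it was 3 with only the libraries compared, against 5. For age in mutants it was 4 with only the libraries compared, 3 with DESeq2 and 3 with the replicate block, against 1. The cause was not tested. Leaving out 1 library gave 3 to 5 for genotype under restriction, 1 to 3 for age in mutants and 2 to 4 for restriction in wild types.

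Leaving out 1 library moved the log2 change of Cyp2c50 between -0.266 and 0.011 (genotype, free feeding) and between -0.077 and 0.17 (restriction, wild type). It moved Cyp2c37 between -0.046 and 0.264 (genotype, restriction), Cyp2c70 between -0.344 and 0.007 (restriction, wild type) and between -0.319 and 0.047 (difference of responses), and Cyp2c54 between -0.167 and 0.135 (free-fed mutants against 104-week wild types). For age in mutants it moved Cyp2c40 between -0.109 and 0.005, Cyp2c69 between -0.105 and 0.001, and Cyp2c54 between -0.208 and 0.094. With total counts only, age in mutants gave 0.025 for Cyp2c40, 0.002 for Cyp2c54 and 0.022 for Cyp2c69, and Cyp2c54 was at 0.076 against 104-week wild types. That scaling moved the median of all genes to 0.12 for restriction in mutants, 0.10 for restriction in wild types and 0.13 for free-fed mutants against 104-week wild types, and the share of higher calls to 62.0 to 74.2%, against 43.7 to 52.4%, in 6 comparisons.

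In sums over groups of related genes, which add distinct genes (Cyp2c29 with Cyp2c38 and Cyp2c39, Cyp2c37 with Cyp2c50 and Cyp2c54), Cyp2c54 took -0.073 (genotype, free feeding) and Cyp2c38 and Cyp2c39 -0.107 (restriction, wild type). Cyp2c55, summed with the more abundant Cyp2c65 and Cyp2c66, with which it is 75.2 and 75.5% identical, took 0.394 and -0.528 for genotype under free feeding and restriction, 0.554 for age in wild types, -0.995 for restriction in mutants and -0.923 for the difference of responses.

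With only the libraries compared, genes called over the whole table numbered 2202 against 1262 for genotype under free feeding, 877 against 2320 under restriction, 568 against 87 for age in mutants and 986 against 1726 for restriction in wild types, and 126 against 190 for the difference of responses. DESeq2 called 201 genes for age in mutants and 388 for the difference of responses. Leaving out 1 library gave 29 to 76 genes for age in mutants. Deviations of libraries with the same replicate number correlated at -0.222 to 0.316. With 4 libraries per group, this cannot show whether the numbers mark pairs or a batch. With the replicate block, 5, 4, 5, 3, 4, 8, 5 and 4 members were called in the 8 comparisons, in the order genotype free-fed and restricted, age in wild types and mutants, restriction in wild types and mutants, difference of responses, and free-fed mutants against 104-week wild types. With the block Cyp2c69 passed for genotype under free feeding (adjusted p = 0.045) and Cyp2c54 did not pass under restriction (0.0565). Of 80 member results per alternative, 77 kept their side and direction with DESeq2 and 80 with RLE size factors. Depth limits Cyp2c55, and the unknown handling of multi-mapped reads limits the near-identical genes.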

Other observations

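Genes whose 6 group means ran most like those of a member were sought among 11145 genes. The measure was the root mean square difference of centred group-mean log2 CPM, over 6 groups, for members whose group means spanned at least 1 on that scale. Cyp2c38 and Cyp2c39 were nearest to Vldlr, the very low density lipoprotein receptor, at 0.291 and 0.419, and to Abcd2, a peroxisomal fatty acid transporter, at 0.454 and 0.445. Cyp2c29 was nearest to Scd4 and Scd3, stearoyl-CoA desaturase genes on the same chromosome, at 0.242 and 0.244. Cyp2c69 was nearest to the cluster genes Cyp2c66 and Cyp2c65, at 0.08 and 0.083.

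Cyp2c40 was nearest to Sec23b, a coat protein of vesicles leaving the endoplasmic reticulum, at 0.088. Cyp2c37 was nearest to Ago2, which acts with small RNAs, at 0.064. Cyp2c70 was nearest to Apobec1, the editing enzyme of apolipoprotein B mRNA, at 0.127, and Cyp2c55 to Arhgap18 at 0.139. Between members the difference was 0.06 for Cyp2c40 and Cyp2c69, 0.151 for Cyp2c38 and Cyp2c39, and 1.067 for Cyp2c29 and Cyp2c38. These values describe 6 group means and carry no test.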
